A study of Mus musculus with 6 samples.

Results

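Interferon-stimulated genes are the genes that a cell switches on when it senses interferon. Here 41 of them were followed in bone marrow (BM) cells of mice given JAK3 M511I donor cells with or without Phf6. They were found by exact match of the gene symbol in the deposited expression table, which held all 41 among its 54532 genes. Of these, 38 were expressed highly enough to be tested, together with 13393 genes in all. Ifit1, Mx2 and Ifi44 fell under the filter, under which at least 3 of the 6 libraries had to reach an FPKM of 1 (FPKM is the number of fragments scaled to gene length and library size). The match used symbols alone.

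Type I interferons bind a receptor made of Ifnar1 and Ifnar2, and the kinases Jak1 and Tyk2 then activate a complex that holds Stat2 and Irf9 and binds the interferon-stimulated response element (ISRE) in target promoters. Interferon gamma, the product of T cells and NK cells, signals through Ifngr1 and Ifngr2 to target promoters that hold the gamma-activated site (GAS). The targets include antiviral effectors such as the OAS, Mx and IFIT proteins, sensors of foreign RNA and DNA, and large GTPases that act on vacuoles holding pathogens. JAK3, the kinase carrying the M511I change here, normally serves the cytokine receptors that contain the common gamma chain and is not a kinase of the interferon receptors.

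The RNA was that of BM cells from C57BL/6 mice that had received, 100 days before, donor cells into which JAK3 M511I had been introduced, and all 6 libraries share JAK3 M511I. By the labels, 3 libraries were wild-type (WT 1 to WT 3) and 3 were knockout (KO 1 to KO 3). Within each group the genotype labels name Phf6, Phf7 and Phf8 in turn, and all were read as Phf6. The study's methods give the donor cells as male lineage-negative BM cells transduced with a retrovirus that also marks them with GFP, and the knockout as a deletion of floxed Phf6 by Vav1-Cre, which acts in hematopoietic cells from the embryo on, against floxed cells without Cre. The study describes the profiled cells as T-cell acute lymphoblastic leukemia cells. The labels name no Cre driver, no sort of GFP+ cells and no animal of origin, so the p-values measure the spread between these libraries, which may be in part technical, and cells of the irradiated host may be present.

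The promoters of 5 members at the ends of the fold-change range are shown first, because the same response element occurred in members that rose and in members that fell. RefSeq gave a promoter for 31 of the 41 genes (GRCm38.p6, 250 bases before to 50 after the start, 300 bases in all), and none was given for Usp18, Oas2, Mx1, Mx2, Rtp4, Dhx58, Zbp1, Parp9, Parp14 and Iigp1. Both strands were searched for the core of the ISRE, GAAANNGAAA, and for the core of the GAS, TTCNNNGAA, and matches of the 2 motifs may overlap each other. The sequences run 5′ to 3′ on the strand of the gene and capitals mark the matches. Oas1a (chr5:120907476-120907775, minus strand), Oas3 (chr5:120777610-120777909, minus strand) and Irf7 (chr7:141266375-141266674, minus strand) are the members with the largest absolute fold changes among those with a promoter, and all 3 fell. Gbp3 (chr3:142559794-142560093, plus strand) and Igtp (chr11:58199306-58199605, plus strand) had the largest rises among those with a promoter and were added after the values were seen.
Oas1a: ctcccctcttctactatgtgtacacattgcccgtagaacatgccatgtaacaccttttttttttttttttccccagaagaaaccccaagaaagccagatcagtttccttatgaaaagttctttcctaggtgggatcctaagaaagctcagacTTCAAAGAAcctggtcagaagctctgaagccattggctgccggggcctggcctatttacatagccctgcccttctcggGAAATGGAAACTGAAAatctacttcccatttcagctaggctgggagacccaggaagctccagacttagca
Oas3: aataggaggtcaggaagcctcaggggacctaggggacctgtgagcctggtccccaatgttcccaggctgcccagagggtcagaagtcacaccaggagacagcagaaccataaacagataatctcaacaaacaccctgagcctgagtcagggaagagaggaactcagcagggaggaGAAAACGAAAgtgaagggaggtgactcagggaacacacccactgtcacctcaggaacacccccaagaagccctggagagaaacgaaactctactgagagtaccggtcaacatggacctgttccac
Irf7: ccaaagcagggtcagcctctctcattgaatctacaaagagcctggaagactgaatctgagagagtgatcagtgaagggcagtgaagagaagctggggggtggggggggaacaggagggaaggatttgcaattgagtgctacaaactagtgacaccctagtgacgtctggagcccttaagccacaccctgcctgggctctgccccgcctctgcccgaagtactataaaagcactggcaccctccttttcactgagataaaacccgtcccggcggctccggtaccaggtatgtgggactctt
Gbp3: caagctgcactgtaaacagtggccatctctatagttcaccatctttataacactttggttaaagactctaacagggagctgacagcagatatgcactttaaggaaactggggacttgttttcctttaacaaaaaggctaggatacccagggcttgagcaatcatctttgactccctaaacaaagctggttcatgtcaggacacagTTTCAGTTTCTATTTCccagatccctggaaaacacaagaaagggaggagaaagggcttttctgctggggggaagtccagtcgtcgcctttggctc
Igtp: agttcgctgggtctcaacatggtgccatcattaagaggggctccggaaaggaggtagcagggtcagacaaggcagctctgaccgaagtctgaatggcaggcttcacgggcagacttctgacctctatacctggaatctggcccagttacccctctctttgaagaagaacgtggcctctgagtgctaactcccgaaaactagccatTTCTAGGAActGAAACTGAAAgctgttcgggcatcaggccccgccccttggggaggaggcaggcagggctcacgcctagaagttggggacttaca

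Oas1a held 2 overlapping matches of the ISRE core, the first beginning 20 bases before the start, and 1 match of the GAS core 98 bases before it. Oas3 held 1 ISRE core 75 bases before the start, and Irf7 held neither motif in this window. Gbp3 held 2 overlapping ISRE cores from 45 bases before the start, and Igtp 1 ISRE core at 34 bases with a GAS core at 45 bases. The ISRE core stood in a promoter of 19 of the 31 members (61.3%). It stood in a promoter of 3.99% of the 27025 genes in the RefSeq table, and in 3.44% of its 32851 promoters. The GAS core stood in 9 members (29%), against 9.55% of all genes and 8.3% of all promoters. Of the members that rose, 3 of the 3 with a promoter held the ISRE core, and of those that fell 3 of 4 held it. Of the tested members that did not pass, 12 of 22 held it. A match is a description of the letters and no measure of binding.

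Some facts of the whole series bear on every value given here. Fragments recovered from the table (called reads) came to between 13015823 and 18235095 per library. WT 2 stood apart from the other 5 libraries, where genes under 1000 bases in length took 17.08% of the reads (3.114% to 5.014% in the others) and those of at least 8000 bases took 6.736% (22.92% to 26.51%), so results are also given without it. The targeted gene Phf6 had an FPKM of 7.47, 3.67 and 8.02 in WT 1 to WT 3 and of 6.73, 5.50 and 5.11 in KO 1 to KO 3 (limma, adjusted p = 0.893), over all of its exons, of which the deletion removes a part, so that this value does not check the labels. Markers of mature cells set the groups far apart. The summed FPKM of 14 neutrophil markers was 6943 to 95740 in the WT and 94.56 to 293.2 in the KO libraries, and all 14 fell. Of 12 markers of monocytes and macrophages, 9 of the 10 tested fell, and their sum was 414.9 to 4936 in WT and 15.9 to 26.74 in KO. All 4 NK cell markers that could be tested, of 6, fell, from sums of 48.21 to 96.99 to sums of 0.37 to 1.40, and Klra8 had no read in any KO library. All 6 markers of immature thymocytes rose, from sums of 8.55 to 39.1 to sums of 829.5 to 983.6, and Ptcra had no read in any WT library. All 4 of the NK markers, 5 of the monocyte and macrophage markers and 3 of the neutrophil markers passed the filter only through WT. Ptcra passed it only through KO, and for these genes passing already required a difference. The 8 T cell markers summed to 778.8 to 1720 in WT and to 626.8 to 778.2 in KO. WT 2 also held most of the B cell markers (10 genes, a sum of 1315 against 15.21 and 21.76 in the other WT and 3.39 to 3.84 in the KO libraries) and of the erythroid markers (7 genes, 58690 against 120.4 and 476.2 in the other WT and 9.42 to 105.9 in the KO libraries). In bulk RNA fewer cells of a type and less RNA per cell cannot be told apart. The part of these cells in the results was not tested.

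The interferon-stimulated genes did not move as a block between the KO and WT libraries. Iigp1, Parp9, Gbp3, Igtp and Eif2ak2 were higher in the KO libraries and Oas1a, Oas3, Mx1, Irf7 and Ifit3 were lower, by limma on log2(FPKM + 1) with an adjusted p under 0.05, while 28 of the 38 tested did not pass. The 5 that rose compare with 13.1% of all genes tested called higher, and the 5 that fell with 13.3% called lower. In either direction 26.3% of the members passed, against 26.4% of all genes tested, a share near the background. The median log2 fold change (KO against WT throughout) was 0.092 over the 38 members and 0.086 over all genes tested, and 20 of the 38 values lay above 0. The values ranged from -3.15 for Oas1a to 4.09 for Iigp1, and the median absolute value was 0.80 for the members against 0.65 for all genes. The KO libraries all lay above the WT libraries in 10 members and all below in 9, against 26.2% and 22.9% of all genes tested. Without WT 2, 12 members were higher and 11 lower, against 26.8% and 25.3% of all genes. Oas1a, Mx1 and Rsad2 passed the filter only through the WT libraries and Iigp1 only through the KO libraries, so that for these 4 genes passing the filter already required a difference.

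**Figure D1:**
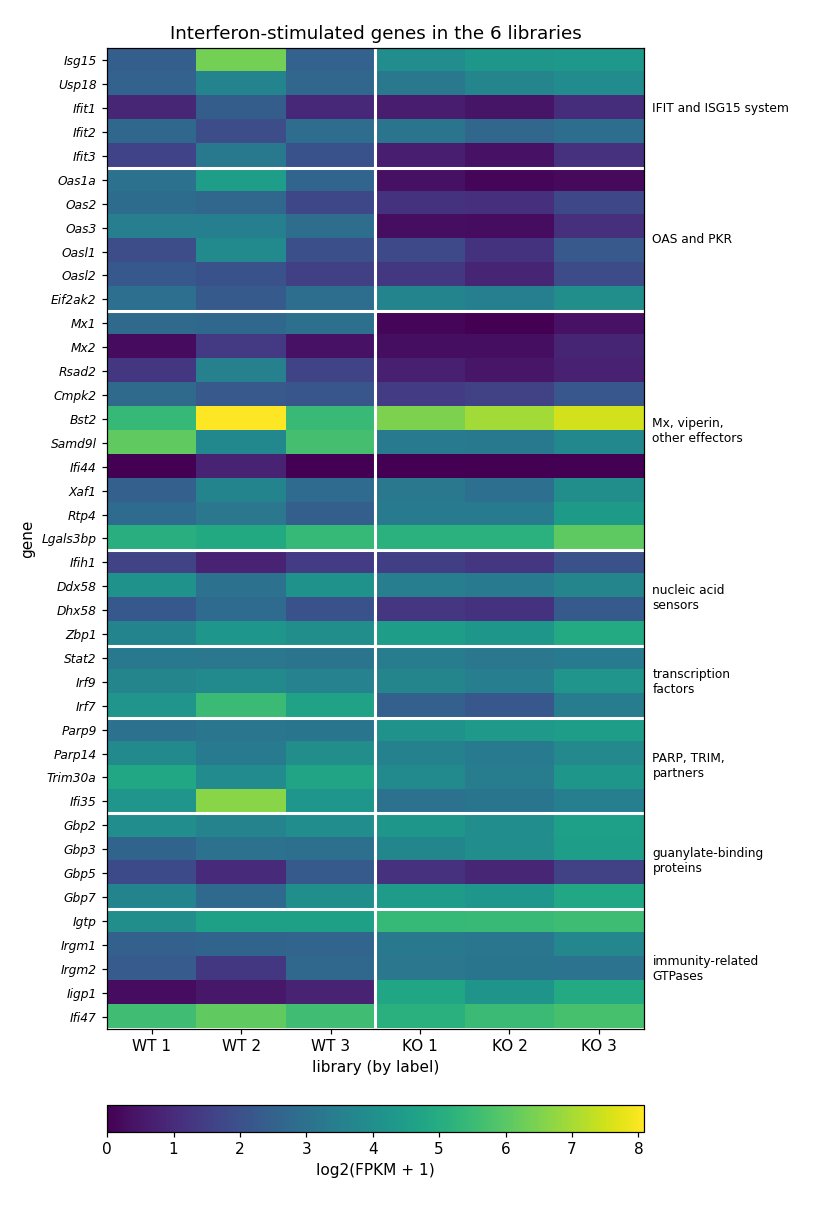
Heat map of log2(FPKM + 1) for the 41 interferon-stimulated genes (vertical axis, grouped by role) in the 6 libraries (horizontal axis, by label). Oas1a, Oas3 and Mx1 were dark in all 3 KO libraries and Iigp1 in all 3 WT libraries, and Isg15, Bst2 and Ifi35 were brightest in WT 2 among the WT libraries.

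The largest rise was that of an immunity-related GTPase. These interferon-inducible GTPases coat and break the vacuoles in which intracellular parasites and bacteria live, and interferon gamma is their classic inducer. Iigp1 (ENSMUSG00000054072, chromosome 18, 60376029 to 60392627, plus strand), which encodes Irga6, had an FPKM of 0.208, 0.436 and 0.765 in WT 1 to WT 3 and of 26.0, 17.2 and 29.6 in KO 1 to KO 3. Every KO library was far above every WT library. The mean went from 0.469 ± 0.280 to 24.3 ± 6.34 (SD, n = 3 each), a ratio of 51.7. The log2 fold change was 4.09 (standard error, SE, 0.30, limma adjusted p = 0.000399). It was taken on log2(FPKM + 1), which understates changes of low genes, and is not the logarithm of that ratio. The WT values rested on 10, 16 and 37 reads and the KO values on 847 to 1511.

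Igtp, which encodes Irgm3, one of the regulatory members that protect the cell's own membranes, had an FPKM of 14.9, 22.8 and 22.9 in WT 1 to WT 3 and of 41.3, 42.1 and 46.0 in KO 1 to KO 3. The groups did not overlap, and the log2 fold change was 1.08 (SE 0.26, limma adjusted p = 0.024). The other regulatory members showed the same order without passing the test. Irgm1 had 4.54, 5.11 and 5.23 in WT and 8.65, 8.02 and 12.4 in KO (log2 fold change 0.82, limma adjusted p = 0.0554). Irgm2 had 4.04, 1.498 and 5.53 in WT and 8.26, 7.83 and 7.52 in KO (1.03, limma adjusted p = 0.102). Igtp and Irgm2 overlap on the same strand, so that reads in the overlap cannot be assigned to 1 of them with certainty. Ifi47, also known as Irg47, was the exception in this family, with 47.9, 67.3 and 47.1 in WT and 34.0, 44.6 and 51.5 in KO, groups that overlapped (log2 fold change -0.31, limma adjusted p = 0.472). The family thus had 2 of its 5 genes higher and none lower, beside 13.1% and 13.3% of all genes tested. Its median log2 fold change was 1.03. Rescaling each library to TPM (the same sum of FPKM in every library) moved the median of all genes from 0.086 to 0.857, and relative to that shift the family median was again 1.03. Without WT 2, 4 of the 5 genes passed as higher, in a fit that called 26.8% of all genes higher.

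The guanylate-binding proteins are larger GTPases that attack the same vacuoles and gather inflammasomes. Gbp3 had an FPKM of 5.12, 7.24 and 6.90 in WT 1 to WT 3 and of 11.95, 14.53 and 22.3 in KO 1 to KO 3. All KO values lay above all WT values (log2 fold change 1.19, SE 0.30, limma adjusted p = 0.0296). Gbp7 had 11.6, 5.85 and 15.4 in WT and 20.6, 17.9 and 26.9 in KO, again without overlap, but did not pass (1.00, limma adjusted p = 0.102). Gbp2 had 14.6, 11.3 and 14.7 in WT and 18.4, 14.5 and 22.7 in KO, groups that overlapped (0.41, adjusted p = 0.30 by limma). Gbp5, an activator of the NLRP3 inflammasome, was low throughout, with 2.499, 1.012 and 3.92 in WT and 1.23, 0.813 and 2.04 in KO (-0.50, limma adjusted p = 0.396). Of the 4 genes, 1 passed as higher and none as lower, beside 13.1% and 13.3% of all genes tested. Without WT 2, Gbp7 also passed as higher (0.65, limma adjusted p = 0.0474) and Gbp5 passed as lower (-0.85, limma adjusted p = 0.0462). The family then held members called in both directions, in a fit that called 26.8% of all genes higher and 25.3% lower.

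**Figure D2:**
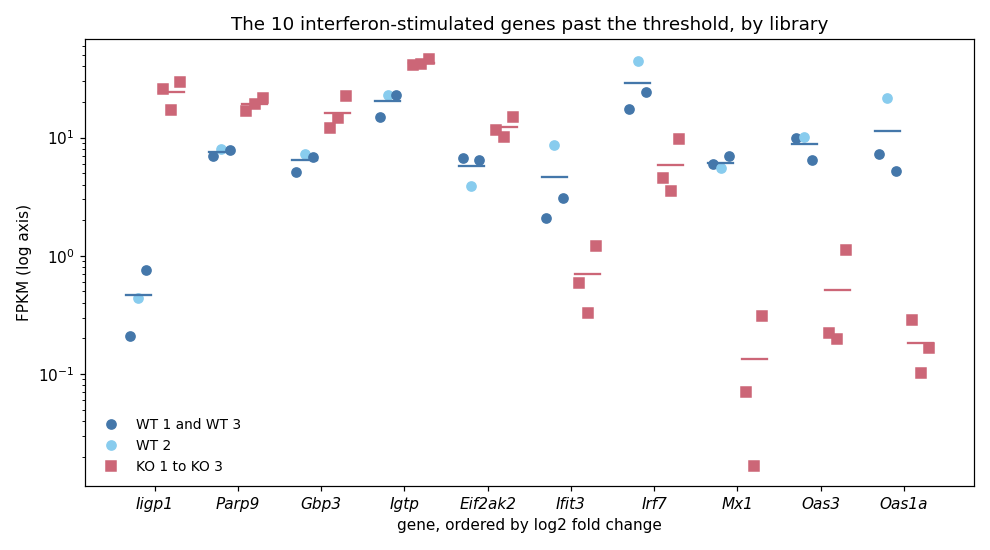
FPKM on a log axis of the 10 interferon-stimulated genes past the threshold, with points for WT 1 and WT 3 (dark circles), WT 2 (light circles) and KO 1 to KO 3 (squares) and lines at the group means. The WT and KO points did not overlap in any of the 10 genes, and the gap was widest for Iigp1, Mx1, Oas3 and Oas1a.

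Oligoadenylate synthetases (OAS) make the second messenger that activates RNase L when they meet double-stranded RNA. Of the 5 OAS genes Oas1a and Oas3 fell, beside 13.3% of all genes tested called lower. Oas1a had an FPKM of 7.22, 21.7 and 5.24 in WT 1 to WT 3 and of 0.285, 0.101 and 0.165 in KO 1 to KO 3. No KO library came near the lowest WT library, and the KO values rested on 10, 3 and 5 reads against 210, 480 and 153. The mean was 62.0-fold higher in WT (11.4 ± 8.97 against 0.184 ± 0.093, SD, n = 3 each), or 33.9-fold without WT 2, and the log2 fold change was -3.15 (SE 0.49, limma adjusted p = 0.00494). Oas3 (chromosome 5, 120753098 to 120777661, minus strand) had 9.86, 10.2 and 6.46 in WT and 0.220, 0.198 and 1.12 in KO (-2.73, SE 0.33, limma adjusted p = 0.00196). These groups were also well apart, although KO 3 lay above KO 1 and KO 2.

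The remaining OAS genes had values below 0 that did not pass. After rescaling to TPM Oasl1 and Oasl2 were at -0.18 and -0.077, and relative to the shift of all genes (median 0.857) at -1.04 and -0.93. Oas2 had 6.26, 5.35 and 2.36 in WT and 1.27, 1.18 and 2.33 in KO, where KO 3 almost reached WT 3 (log2 fold change -1.08, limma adjusted p = 0.0761). Oasl1, which restrains the translation of Irf7, had 2.76, 13.3 and 2.89 in WT and 2.45, 1.29 and 3.79 in KO (-0.82, limma adjusted p = 0.36). Oasl2 had 3.70, 3.07 and 1.87 in WT and 1.48, 0.767 and 2.68 in KO (-0.59, limma adjusted p = 0.268). The groups of Oasl1 and Oasl2 overlapped. Eif2ak2 encodes PKR, the kinase that stops translation on double-stranded RNA, and rose, with 6.72, 3.86 and 6.51 in WT and 11.5, 10.1 and 14.99 in KO (0.99, SE 0.29, limma adjusted p = 0.0488). The closest relatives of Oas1a differed among themselves. Oas1c fell (-1.47, limma adjusted p = 0.0303), Oas1g was under the filter, and Oas1b stayed between 4.43 and 7.42 FPKM in all 6 libraries (0.16, limma adjusted p = 0.697). How reads shared by near-identical copies were counted is not given in the sources used here, which bears on Oas1a, Ifit3, Iigp1 and the Gbp genes. Eif2ak2, Rtp4, Dhx58, Irf9, Ifi47, Usp18, Oas2, Oasl1, Parp14, Trim30a, Ifi35, Gbp2 and Gbp7 also overlap other genes on the annotation.

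Among the other antiviral effectors Mx1 stood out. Mx1 (chromosome 16, 97447035 to 97462907, minus strand) is a GTPase that blocks influenza virus, and C57BL/6 mice carry a defective allele of it. Its FPKM was 5.94, 5.51 and 6.96 in WT 1 to WT 3 and 0.071, 0.017 and 0.312 in KO 1 to KO 3. The WT libraries lay close together, WT 2 included, and the KO libraries held only 5, 1 and 19 reads against 347, 245 and 408. The ratio of the means was 46.1 in favour of WT, and the log2 fold change was -2.66 (SE 0.21, limma adjusted p = 0.00051). Its neighbour Mx2 was under the filter, with 0.179, 1.58 and 0.321 in WT and 0.238, 0.229 and 0.791 in KO, groups that overlapped.

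Rsad2 (viperin), which makes a chain-terminating nucleotide, had an FPKM of 1.47, 10.46 and 2.16 in WT 1 to WT 3 and of 0.632, 0.396 and 0.659 in KO 1 to KO 3. The groups did not overlap, and WT 2 alone was several times above the other WT libraries (-1.52, limma adjusted p = 0.102). Without WT 2 the log2 fold change of Rsad2 was -0.84 (limma, adjusted p = 0.0127). Cmpk2, which lies next to Rsad2 and encodes a nucleotide kinase, had 5.99, 3.80 and 3.46 in WT and 1.73, 2.01 and 3.58 in KO, and KO 3 overlapped the WT range (-0.66, limma adjusted p = 0.178). Samd9l, a translational repressor that limits myeloid growth, had 67.3, 12.7 and 50.5 in WT and 9.02, 8.71 and 12.6 in KO. WT 2 was only just above KO 3 for this long gene, and the log2 fold change was -1.73 (limma, adjusted p = 0.084), or -2.44 without WT 2 (limma, adjusted p = 0.000481).

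Bst2 (tetherin), which holds budding virions at the membrane, was the member with the highest FPKM in WT 2 and in all KO libraries, with 41.4, 268.9 and 43.2 in WT and 87.99, 123.5 and 181.3 in KO. WT 2 was above all KO libraries while WT 1 and WT 3 were below them, so that the log2 fold change of 0.67 (limma, adjusted p = 0.573) became 1.55 without WT 2 (limma, adjusted p = 0.00749). Rtp4, an inhibitor of viral replication, had 6.11, 8.22 and 4.39 in WT and 9.15, 8.85 and 20.4 in KO (0.86, limma adjusted p = 0.163), with no overlap. Xaf1 (0.41) and Lgals3bp (0.32) overlapped and did not pass. Ifi44 had 2, 53 and 1 reads in WT and none in KO, where 3 reads would amount to at most 0.19 RPM, and no fold is given because WT 1 and WT 3 were under the same 3 reads. Of the 8 effectors tested, Mx1 alone passed with all 6 libraries, and Bst2, Rsad2 and Samd9l joined it without WT 2. Over all genes tested, 26.4% passed in either direction with all 6 libraries and 52% without WT 2.

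In the ISG15 system, a ubiquitin-like modifier and its partners, the call depended on WT 2. Isg15 had an FPKM of 4.46, 83.5 and 4.78 in WT 1 to WT 3 and of 14.7, 18.5 and 18.8 in KO 1 to KO 3. WT 2 was far above all other libraries, and the KO libraries lay between it and the other WT libraries. It changed by 0.40 on the log2 scale, with an SE of 1.04 (limma, adjusted p = 0.818), and by 1.70 without WT 2 (limma, adjusted p = 0.000617), and Isg15 is the shortest member (756 bases). Usp18, which removes Isg15 from proteins and blocks the type I receptor, had 4.83, 11.5 and 5.41 in WT and 8.35, 11.7 and 13.9 in KO (0.64, limma adjusted p = 0.266). Without WT 2 its groups separated as well (0.98, limma adjusted p = 0.0132).

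The IFIT proteins hold back the translation of viral RNA. Ifit3 had an FPKM of 2.08, 8.63 and 3.07 in WT 1 to WT 3 and of 0.585, 0.328 and 1.21 in KO 1 to KO 3. All KO values were below all WT values (-1.57, SE 0.46, limma adjusted p = 0.049), just within the threshold. Ifit2 had 5.59, 2.73 and 6.39 in WT and 7.56, 5.29 and 6.60 in KO, groups that overlapped (0.39, limma adjusted p = 0.445). Ifit1 was under the filter, with 0.829, 4.26 and 0.875 in WT and 0.526, 0.383 and 1.08 in KO, also with overlap.

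None of the 4 sensors of foreign nucleic acid passed (limma, 0 of 4, also 0 at an unadjusted p under 0.05 and 0 by voom on the recovered reads), except that Zbp1 passed as higher after rescaling to TPM (limma, adjusted p = 0.0482). Relative to the shift of all genes under TPM, the log2 fold change of Zbp1 was 0.60. Ddx58 encodes RIG-I, and its FPKM was 16.8, 7.11 and 16.7 in WT and 9.94, 9.23 and 11.8 in KO (-0.28, limma adjusted p = 0.624). Zbp1, a sensor of Z-form nucleic acid that can start necroptosis, had 11.6, 17.98 and 14.95 in WT and 22.04, 18.3 and 29.4 in KO, with KO 2 only just above WT 2 (0.61, limma adjusted p = 0.172). Dhx58, which encodes LGP2, had 3.72, 6.11 and 3.10 in WT and 1.43, 1.28 and 3.85 in KO (-0.79, limma adjusted p = 0.193). The sensor MDA5, encoded by Ifih1, was low at 2.12, 0.761 and 1.64 in WT and 1.83, 1.42 and 3.02 in KO (0.31, limma adjusted p = 0.524). Without WT 2, Zbp1 passed as higher (limma, adjusted p = 0.0353) and Ddx58 as lower (limma, adjusted p = 0.0126).

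Of the transcription factors, the pair that carries the type I signal did not pass, and the one that amplifies it fell. Irf7, which drives the later wave of interferon alpha genes, had an FPKM of 17.4, 44.6 and 24.4 in WT 1 to WT 3 and of 4.54, 3.55 and 9.64 in KO 1 to KO 3. The groups did not overlap, the ratio of the means was 4.88 in favour of WT, and the log2 fold change was -2.11 (SE 0.46, limma adjusted p = 0.0181). Irf7 overlaps Phrf1 on the other strand, and use of the strand in counting is not given in the sources used here. Of 6 markers of plasmacytoid dendritic cells, which are known for high Irf7, Siglech and Cd300c had no read in any KO library. In WT 1 to WT 3 Siglech had 20, 634 and 2 reads and Cd300c 8, 62 and 0. Klk1 and Pacsin1 were at 0.395 FPKM or less in KO. In WT 1 to WT 3 Klk1 had 0.120, 8.85 and 0.060, and Pacsin1 0.794, 1.695 and 3.985. Cox6a2 was at 4.03 to 7.13 in KO and at 0.762, 18.4 and 0.190 in WT (0.80, limma adjusted p = 0.616). Without WT 2, Cox6a2 passed as higher (2.04, limma adjusted p = 0.00269). Ccr9, which immature thymocytes also express, rose (3.15, limma adjusted p = 0.000302) and held most of the summed level in KO (13.8 to 18.1, against 2.80, 50.2 and 4.52 in WT 1 to WT 3). It passed the filter only through the KO libraries. The part of plasmacytoid dendritic cells in the value of Irf7 was not tested. Stat2 had 8.69, 8.25 and 7.70 in WT and 9.67, 8.15 and 9.07 in KO (0.11, SE 0.21, limma adjusted p = 0.749). Irf9 had 11.9, 13.5 and 11.01 in WT and 11.7, 10.04 and 17.6 in KO (0.073, SE 0.27, limma adjusted p = 0.873).

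The last role holds ADP-ribosyltransferases, a TRIM protein and Ifi35. Parp9, which works with the ubiquitin ligase Dtx3l on histones and viral proteins, had an FPKM of 7.02, 7.98 and 7.77 in WT 1 to WT 3 and of 16.7, 19.1 and 21.7 in KO 1 to KO 3. The spread within each group was small against the step between them (1.23, SE 0.22, limma adjusted p = 0.00854). Dtx3l, its partner and head-to-head neighbour, had 11.3, 7.13 and 12.9 in WT and 24.9, 23.2 and 27.9 in KO (1.23, limma adjusted p = 0.0196), and the overlap of the 2 genes on opposite strands means that a share of their reads cannot be told apart without strand. Parp14 had 13.3, 9.10 and 14.9 in WT and 10.7, 9.30 and 12.9 in KO (-0.15, limma adjusted p = 0.727). Trim30a, a brake on Toll-like receptor signalling, had 27.4, 13.8 and 25.1 in WT and 13.2, 9.70 and 18.6 in KO (-0.63, limma adjusted p = 0.263). Both overlapped. Ifi35 had 17.5, 98.9 and 17.8 in WT and 7.31, 7.87 and 10.1 in KO, with all KO values lower, and WT 2 far above the other WT libraries (-1.80, SE 0.67, limma adjusted p = 0.0994). Without WT 2, Ifi35 (-0.99, limma adjusted p = 0.00461) and Trim30a (-0.92, limma adjusted p = 0.028) passed as lower.

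**Figure D3:**
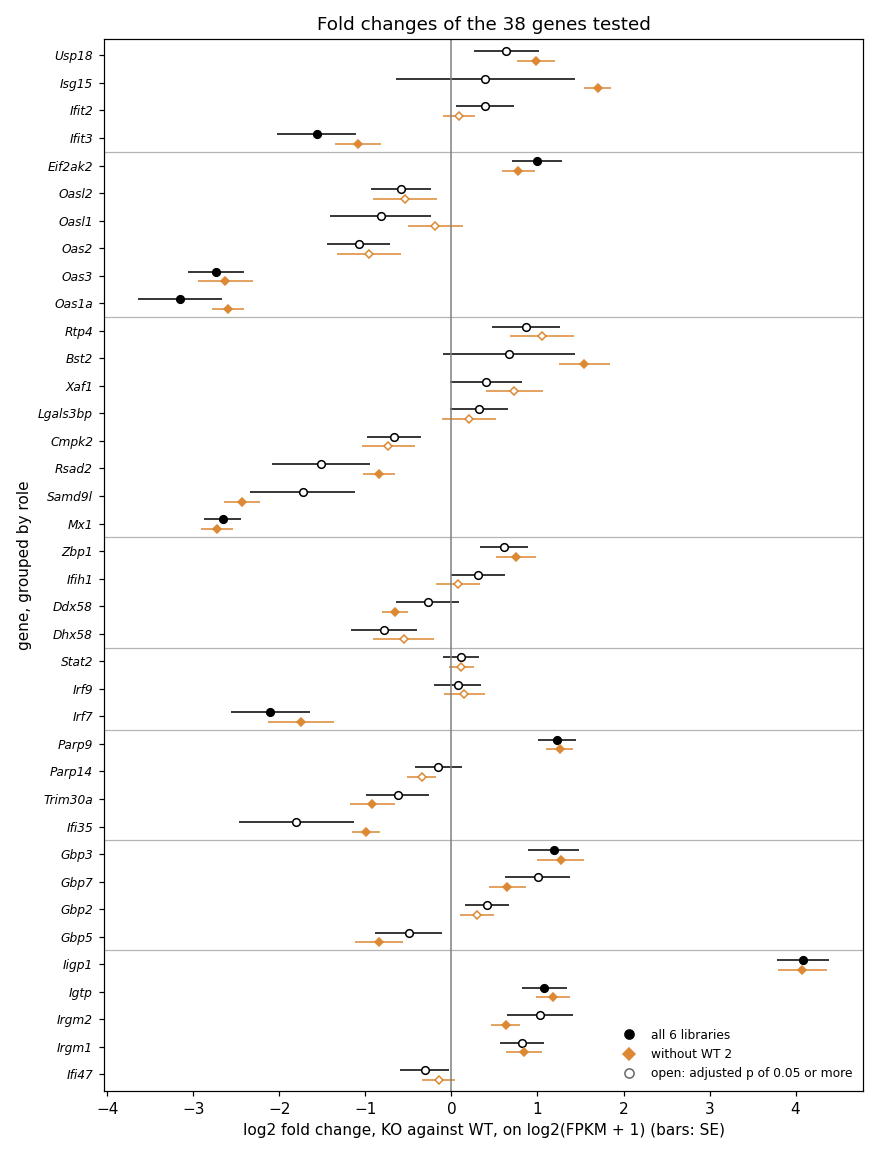
Log2 fold change (horizontal axis, KO against WT on log2(FPKM + 1), bars are SE) of the 38 genes tested, grouped by role on the vertical axis, with all 6 libraries (circles) and without WT 2 (diamonds), filled where the adjusted p is under 0.05. Without WT 2 the errors narrowed for Isg15, Bst2, Samd9l and Ifi35, and 23 genes passed instead of 10. The share of all genes tested that passed went from 26.4% to 52%.

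The calls differed in how far they rested on single libraries. Iigp1, Mx1, Oas3 and Oas1a passed with any 1 of the 6 libraries left out, with log2 fold changes of 3.93 to 4.31 for Iigp1, -2.77 to -2.58 for Mx1, -3.00 to -2.59 for Oas3 and -3.53 to -2.60 for Oas1a. Irf7 lost its call without KO 1 or KO 2 and Parp9 without KO 2 or KO 3, with limma adjusted p-values of up to 0.0789 and 0.0555. Ifit3 lost it without WT 3, KO 1, KO 2 or KO 3 (up to 0.172), and Igtp without WT 1, KO 1, KO 2 or KO 3 (up to 0.106). Gbp3 and Eif2ak2 kept theirs only when WT 2 was the library left out, with adjusted p-values of up to 0.115 and 0.191 otherwise. None of these 10 genes changed direction in any of these fits. Leaving out WT 2 lost no call and added 13, of which 7 were higher and 6 lower, whereas leaving out any other library added nothing, except that without WT 3 Oas2 passed as lower (-1.42, limma adjusted p = 0.0251). Without WT 2, 60.5% of the members passed, against 52% of all genes tested. With all 6 libraries the shares were 26.3% and 26.4%, so the gain was largely shared by the whole table.

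Gene length moved with the values of WT 2. Across the 38 members the difference between WT 2 and the mean of WT 1 and WT 3 had a Spearman correlation with gene length of -0.614, against -0.237 across all genes tested, where the points share the same 3 libraries and are not independent. Isg15, Bst2 and Ifi35 were far above the other WT libraries in WT 2, and the long gene Samd9l was far below them. The sum of the 41 FPKM values was 871 in WT 2 against 463.6 and 471.6 in WT 1 and WT 3.

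Within the KO group the interferon-stimulated genes did vary together. KO 3 was the highest of the 3 KO libraries in 34 of the 38 members (89.5%), against 34.9% of all genes tested, and KO 2 was the lowest in 27 (71.1%), against 33.1%. KO 1 was the highest in the other 4 (Ifit2, Oas1a, Stat2 and Irgm2), and KO 2 in none. KO 3 exceeded the mean of KO 1 and KO 2 by a median of 0.494 on the log2(FPKM + 1) scale over the members, against 0.00719 over all genes. Mx1 at 0.312 against 0.071 and 0.017, Oas3 at 1.12 against 0.220 and 0.198, Dhx58 at 3.85 against 1.43 and 1.28 and Rtp4 at 20.4 against 9.15 and 8.85 show the size of the step. It was seen in members that rose, such as Gbp3, in members that fell, such as Irf7, and in members that passed in neither direction, such as Bst2. Among the 54 other interferon-induced genes tested KO 3 was highest in 36 (66.7%), and among the 30 tested genes of the pathway itself in 8 (26.7%). KO 3 also had the highest sums of neutrophil markers (293.2, against 94.56 and 272.7) and of monocyte and macrophage markers (26.74, against 15.9 and 21.8), and the part of these cells in this pattern was not tested. The labels give no batch or animal that would set KO 3 apart.

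**Figure D4:**
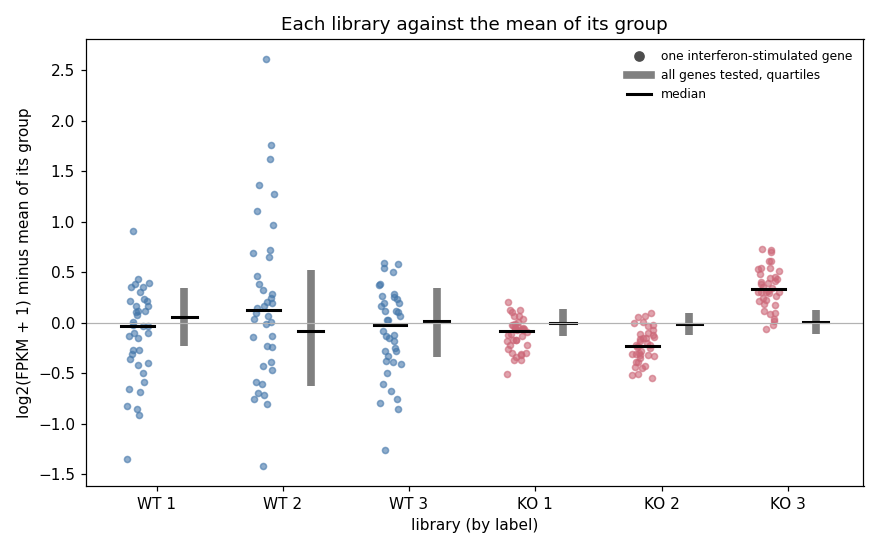
Deviation of each library from the mean of its group on the log2(FPKM + 1) scale (vertical axis) for the 38 interferon-stimulated genes tested (points) beside the quartiles of all genes tested (grey bars), with medians as black lines, by library (horizontal axis). In KO 3, 36 of the 38 members lay above 0 with a median of 0.329, while the median of all genes was 0.005.

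The genes that make and carry the interferon signal were examined from a list of 42, of which 30 could be tested. Ifng, the gene of interferon gamma, had an FPKM of 13.2, 59.1 and 24.5 in WT 1 to WT 3 and of 0.539, 1.82 and 1.68 in KO 1 to KO 3. The groups were far apart, and the log2 fold change was -3.62 (SE 0.56, limma adjusted p = 0.00497), on 264 to 899 reads in WT and 13 to 37 in KO. NK cell markers were low in the same KO libraries, and of the 8 T cell markers 3 (Trac, Cd5 and Cd6) fell and 5 did not pass. The part of NK cells and T cells in this value was not tested. Of the other 9 ligand genes, Ifnb1 had 1 read in WT 2 alone and Ifnk had 7 reads in WT 1, none in WT 2 and WT 3, and 2, 5 and 10 in KO 1 to KO 3. Ifna1, Ifna2, Ifna4, Ifna5, Ifne, Ifnl2 and Ifnl3 had none, which at 3 reads allows up to 0.161 to 0.255 RPM per library.

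Of the 6 receptor genes 3 fell, beside 13.3% of all genes tested called lower. Il10rb, shared by the receptors of interferon lambda and interleukin 10, had 23.6, 9.83 and 21.7 in WT and 1.95, 1.87 and 2.28 in KO (-2.59, limma adjusted p = 0.00355, or 0.0813 after rescaling to TPM). Its lambda partner Ifnlr1 had 5.65, 1.20 and 1.22 in WT and 1 or 2 reads per library in KO (-1.64, limma adjusted p = 0.0367). Ifnar1 was lower by less, with 37.0, 32.5 and 38.7 in WT and 22.7, 16.4 and 18.1 in KO (-0.89, limma adjusted p = 0.0335). After rescaling to TPM the value for Ifnar1 was -0.089 (limma, adjusted p = 0.903), and it passed in 9 of 17 alternatives. Relative to the shift of all genes under TPM, to a median of 0.857, the value for Ifnar1 was -0.946. Ifnar2 (-0.24), Ifngr1 (-0.40) and Ifngr2 (0.37) did not pass, and their groups overlapped.

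Among the other transcription factors, Irf1, an early target of interferon gamma, had an FPKM of 34.2, 38.4 and 59.1 in WT and 49.1, 47.2 and 51.9 in KO, with overlap (0.21, limma adjusted p = 0.641). Irf5, a factor of myeloid and B cells, fell from 5.73, 14.5 and 2.51 to 0.240, 0.197 and 0.150 (-2.58, limma adjusted p = 0.0132). Irf8, also known from myeloid cells, had 5.75, 27.2 and 3.05 in WT and 0.700, 0.684 and 1.33 in KO (-2.28, limma adjusted p = 0.0551). Both were highest in WT 2, as were the myeloid and B cell marker sums, whose part in these values was not tested.

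In the sensing branch, Ikbke and Ticam1, a kinase and an adaptor upstream of interferon beta, fell with Myd88. Ikbke had 16.5, 26.0 and 16.7 in WT and 4.83, 4.46 and 4.58 in KO (-1.85, limma adjusted p = 0.00355), and Ticam1 had 5.89, 6.68 and 5.35 in WT and 1.49, 1.08 and 1.66 in KO (-1.54, limma adjusted p = 0.00424). After rescaling to TPM, Ikbke (-1.18), Ticam1 (-1.13) and Myd88 (-0.83) did not pass, with limma adjusted p-values of 0.0669, 0.124 and 0.155. Relative to the shift of all genes under TPM their values were -2.03, -1.99 and -1.69. Of the genes that restrain the response, Samhd1, a nucleotide hydrolase that limits retroviruses and the response to self nucleic acid, showed the largest fall of the list. Its FPKM was 59.0, 55.3 and 58.4 in WT 1 to WT 3 and 0.276, 0.187 and 0.509 in KO 1 to KO 3 (-5.47, SE 0.22, limma adjusted p = 0.000223). Socs1, the feedback inhibitor of JAK kinases, rose, with 7.80, 9.62 and 14.2 in WT and 27.6, 18.8 and 20.4 in KO (1.03, SE 0.30, limma adjusted p = 0.0463). It passed in 9 of 17 alternatives, among which the limma adjusted p reached 0.171. In all, 1 gene of the pathway was higher and 9 were lower, with a median log2 fold change of -0.747, beside the 13.1% and 13.3% of all genes. Samhd1, Ifnlr1 and Irf5, which are among the 9, passed the filter only through the WT libraries, so that passing it already required a difference. After rescaling to TPM 5 were lower, against 1081 of the 13393 genes tested. Without KO 3 also 5 were lower, against 1059 of all genes tested. Without WT 2, 14 were lower, against 25.3% of all genes.

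**Figure D5:**
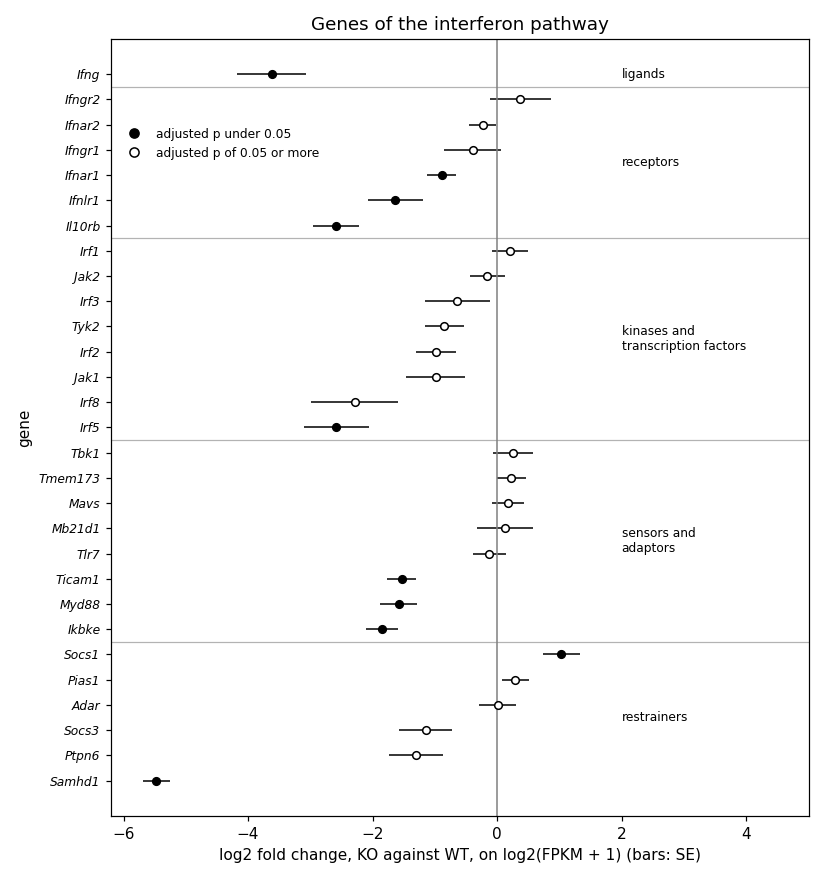
Log2 fold change (horizontal axis, KO against WT on log2(FPKM + 1), bars are SE) of tested genes of interferon production and signalling, grouped by role on the vertical axis, filled where the adjusted p is under 0.05. Samhd1 at -5.47 and Ifng at -3.62 lay lowest, and Socs1 at 1.03 was the one filled point above 0.

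Interferon-induced genes beyond the 41 also included genes called in each direction. Of 63, 54 could be tested, and 9 were higher and 14 lower, beside 13.1% and 13.3% of all genes, with a median log2 fold change of -0.233. Of the 14, 5 (Trim30b, Aim2, Phf11a, Ube2l6 and Tdrd7) passed the filter only through the WT libraries. The 3 largest rises were GTPases: Gbp9 had 16.0, 5.18 and 29.8 in WT and 69.5, 47.6 and 62.3 in KO (2.02, limma adjusted p = 0.0454), Gm12250 (Irgb10) had 3.31, 2.27 and 4.51 in WT and 12.2, 14.2 and 19.9 in KO (1.92, limma adjusted p = 0.00561), and Gbp11 had 0.698, 1.30 and 2.52 in WT and 9.71, 4.58 and 11.1 in KO (1.91, limma adjusted p = 0.0176). Gbp6, Gbp8 and Tgtp1 of the same families also rose, together with Parp11, Dtx3l and Slfn9. Gbp9 overlaps Gbp8 and Gbp4 on the same strand, so that reads in the overlap cannot be assigned to 1 of them with certainty. Gbp9 passed in 8 of 17 alternatives. The 3 largest falls were the IFITM genes, whose products stop viruses from entering the cell. Ifitm3 had 147.2, 476.6 and 36.9 in WT and 3.80, 2.90 and 1.01 in KO (-5.37, limma adjusted p = 0.00667), Ifitm2 had 114.5, 292.6 and 27.2 in WT and 2.95, 2.23 and 2.28 in KO (-4.83, limma adjusted p = 0.00632), and Ifitm1 had 128.3, 312.9 and 13.1 in WT and 3.29, 0.929 and 2.04 in KO (-4.82, limma adjusted p = 0.020). In WT all 3 had the order of the neutrophil marker sums, with WT 2 highest and WT 3 lowest, but in KO all 3 were highest in KO 1, where the neutrophil sum was lowest (94.56, against 272.7 and 293.2). The part of neutrophils in these values was not tested. Among the 18 tested close relatives of the members, 8 rose and 3 fell, the latter being Ifit1bl1, Oas1c and Trim30b. Among the other 36 tested, 1 (Slfn9) rose and 11 fell, with a median of -0.505.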

How the data were processed

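RNA of BM cells was measured in 3 Phf6 WT and 3 Phf6 KO libraries. The authors sequenced paired-end reads and deposited FPKM per gene. HISAT2 2.0.5, featureCounts 1.5.0-p3 and GRCm38/mm10 are named in the submitters' processing notes without a role, and strand use and annotation release are not given in the sources used here. Coordinates of 53462 of 54532 genes matched GENCODE M21. The genotype labels carry a final digit that rises from sample to sample and were read as Phf6.

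Multiplied by gene length, 100% of the deposited FPKM values came out as whole steps (tolerance 0.05 reads), so reads were recovered. Their totals were 0.827 to 1.55 times the library sizes the authors divided by, so that a scaling by the authors is part of the FPKM. Intervals of counting error do not cover PCR copies.

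The study used a model for counts. As the deposited unit is FPKM, log2(FPKM + 1) was tested here for genes that reached an FPKM of 1 in 3 or more of the 6 libraries, with limma 3.58.1 in R 4.3.3 (trend, eBayes, two-sided, Benjamini-Hochberg over 13393 genes, threshold 0.05), a scale that understates changes of low genes. An exact permutation test of 3 against 3 cannot go below 0.1. The members, lists, roles and tests were chosen with earlier results of these data known. Genes were named by rule: in each role up to 3 members with the smallest p-values, every member whose sign was opposite to the median, every member under the filter, fixed classes of the pathway list, and the 3 largest rises and falls of the other interferon-induced genes. Values of further members were added. The values of 1 gene on the pathway list are not reported here. The script was tested on simulated data. Alternatives were other pseudocounts, filters, scalings, weights, voom on recovered reads, the replicate number as a block and each library left out; removal of a length trend, and TPM without WT 2, were added after the data were seen. Further software was Matplotlib 3.10.9, SciPy 1.17.1, NumPy 2.4.6 and pandas 2.3.3 under Python 3.11.15.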

Additional observations from a re-analysis of the deposited data

How the results depend on the processing

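Of 167 alternative values for the 10 genes past the threshold, 131 kept direction and call, 36 kept direction without passing and 0 turned. Of 468 for the 28 other genes, 55 passed. With all genes tested, 1754 were higher and 1785 lower. These counts were 786 and 1051 at a mean FPKM of at least 5, 4388 and 4073 with array weights (WT 2 weighed 0.0509), 2279 and 1081 after rescaling to TPM (67.8% of calls higher, against 49.6%), 5283 and 2478 with TPM and WT 2 left out, and 938 to 3584 and 996 to 3383 with 1 library left out. Of the members, 5 were higher and 5 lower. With TPM they were 9 and 3, with array weights 14 and 14, the stricter filter left 2 lower ones, with TPM and WT 2 left out 15 and 8, and with 1 library left out 1 to 12 and 3 to 11, the highest counts without WT 2. After removal of the length trend they were 5 and 7. The members' median log2 fold change of 0.092 was 0.903 with TPM, 0.403 with TPM and WT 2 left out, 0.406 with the stricter filter and -0.0651 to 0.202 with 1 library left out, where replicates spread by 0.257. TPM moved the median of all genes to 0.857, and relative to it the members' median was 0.0456. The cause of these changes was not tested.

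With the replicate number as a block, 1207 genes were higher and 1469 lower, and of the members 2 and 4. Deviations from the group means correlated at 0.0954, 0.105 and -0.153 in the same-numbered libraries, and not every library correlated best with its own number. With 3 libraries per group such values cannot decide whether same-numbered libraries were paired, and the labels name no pairing. Depth limits the lowest members, since Oas1a, Mx1 and Ifi44 rested on 0 to 19 reads per KO library.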
